A study of Mus musculus with 16 samples.

Results

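The genes described here are 10 genes of ferroptosis defence, cystine transport and iron storage: Slc7a11, Slc3a2, Gclc, Gclm, Gpx4, Aifm2, Acsl4, Tfrc, Fth1 and Hmox1. They were taken by symbol from the 18929 genes of the deposited expression table, and all 10 were found and passed the filter on low values that left 12850 genes for testing. Ferroptosis is a form of cell death in which iron drives the oxidation of polyunsaturated phospholipids in membranes. The cell holds it back by importing cystine, building glutathione from it and using glutathione to reduce lipid peroxides, while the amount of free iron is set by import through the transferrin receptor, release from heme and storage in ferritin. In tumors, cystine import and ferritin are carried by the cancer cells and also by the myeloid cells among them. In the RefSeq annotation (GRCm38.p6) the cystine and glutathione genes lie at chr3:50364936-50499087 (Slc7a11, gene ID 26570), chr19:8706882-8723369 (Slc3a2, 17254), chr9:77754535-77794489 (Gclc, 14629) and chr3:122245487-122267215 (Gclm, 14630). The peroxide defence and lipid genes lie at chr10:80047166-80056439 (Gpx4, 625249), chr10:61715263-61739260 (Aifm2, 71361) and chrX:142317993-142390802 (Acsl4, 50790). The iron genes lie at chr16:32608896-32632794 (Tfrc, 22042), chr19:9980600-9985111 (Fth1, 14319) and chr8:75093618-75100593 (Hmox1, 15368).

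The tumors came from B16F10, a melanoma line of C57BL/6 mice, and were grown in female C57BL/6 mice aged 7 to 8 weeks, with the cells injected at the right of the abdomen. The study asked whether α-ketoglutarate (α-KG), a metabolite of the citric acid cycle and a cofactor of many dioxygenases, adds to blockade of the checkpoint receptor PD1. From a tumor volume of about 50 mm3 on, the mice received intraperitoneal injections for 9 to 11 days. The vehicle group was given corn oil with an IgG isotype control, the anti-PD1 group a monoclonal antibody against PD1, the α-KG group α-KG at 100 mg/kg, and the α-KG + anti-PD1 group both agents. RNA of whole tumors was measured, 4 independent tumors per group and 16 in all, from mice with no genetic change named in the labels. Levels are given in FPKM, which divides the fragments of a gene by its transcript length and by the mapped fragments of the tumor, so levels of different genes can be set side by side. Differences are given as log2(FPKM + 1) with their standard error (SE) from limma, a linear model fitted across all genes, and a gene is said to rise or fall where its Benjamini-Hochberg adjusted p lay under 0.05 over the 12850 genes.

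The ferritin heavy chain Fth1 and the transferrin receptor Tfrc are regulated in opposite ways by the iron regulatory proteins, which bind a hairpin called the iron-responsive element. The part of these proteins in the levels described below was not tested. Those levels are of RNA, so they cannot show control of translation, the step at which the Fth1 element acts. The elements are shown because, with α-KG alone, Fth1 rose and Tfrc fell in the data below. They were found in the GENCODE M21 transcripts (GRCm38, the mm10 build named in the submitters' processing notes) as the loop CAGTGN with the 5 bases before it able to pair (G with T included) with the 5 bases after it and a C before those. Each is printed with its flanks as 29 bases, 5′ to 3′ on the coding strand, with the loop in capitals.
Fth1: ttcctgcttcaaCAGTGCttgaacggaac
Ftl1: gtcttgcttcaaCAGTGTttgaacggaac
Slc40a1: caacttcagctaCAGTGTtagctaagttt
Tfrc element 1: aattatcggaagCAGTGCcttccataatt
Tfrc element 2: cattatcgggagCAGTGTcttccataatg
Tfrc element 3: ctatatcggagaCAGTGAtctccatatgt
Tfrc element 4: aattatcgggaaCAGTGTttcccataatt
The elements of Fth1 (chr19:9982732-9982760, plus strand), of the ferritin light chain Ftl1 (chr7:45459779-45459807, minus strand) and of the iron exporter Slc40a1 (chr1:45925465-45925493, minus strand) lie in exon 1, in the 5′ UTR, where the bound protein blocks translation. Those of Tfrc lie on the plus strand in the 3′ UTR, in exon 19 of 19, where the bound protein protects the mRNA, at chr16:32631219-32631247, chr16:32631598-32631626, chr16:32631663-32631691 and chr16:32631710-32631738. The same search, over whole transcripts, matched 294 of 21877 protein-coding genes (1.34%). A match is a description of the letters, and binding was not measured.

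Slc7a11, the cystine carrying subunit of the antiporter xCT, had the largest fold difference among the 10 genes. Its promoter is shown because it is the only member promoter in the RefSeq table (GRCm38.p6) that held the element of ATF4, the transcription factor of the amino acid stress response. The stretch from position -120 to -31 of the listed start of transcription (chr3:50443644-50443733, minus strand) is printed 5′ to 3′ with both ATF4 elements in capitals.
Slc7a11 promoter: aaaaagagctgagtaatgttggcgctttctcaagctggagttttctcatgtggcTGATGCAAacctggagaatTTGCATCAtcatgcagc
The ATF4 element was searched as TGATGNAA, the antioxidant response element bound by NRF2 as TGANNNNGC and the STAT element as TTCNNNGAA, on both strands, in the 250 bases before and 50 bases after each listed start. They were held by 3.97%, 41.3% and 8.3% of the 32851 promoters in the table. In the Slc7a11 promoter the ATF4 elements began at positions -66 and -47, antioxidant response elements at -97, -45 and 42, and a STAT element at -183, and the antioxidant response element at -45 overlapped the ATF4 element at -47. An antioxidant response element was also matched in the promoters of Gclm (at -134) and Acsl4 (at -219 and -55). No match of the 3 motifs was found in the listed windows of Slc3a2, Gpx4, Aifm2, Tfrc and Fth1. Promoters of Hmox1 and Gclc were not analysed here.

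The cell makeup of the tumors differed between groups, and its values stand here before the results they touch. Markers of the melanocyte lineage, such as Pmel and Tyrp1, were present in every tumor, with a summed level of 8130 to 11100 FPKM over 9 genes, and none was at 0. With both agents Tyr (-0.48), Tyrp1 (-0.34) and Slc45a2 (-0.30) were lower than in vehicle, where 10.5% of all genes fell. With α-KG Mlana was higher (0.36), where 8.4% of all genes rose. No other melanocyte gene passed against vehicle, and without vehicle tumors 3 and 4, described below, none did. Neutrophil markers (8 genes, among them S100a8, S100a9 and Ly6g) summed to between 25.2 and 43.0 FPKM in the vehicle group and to between 1360 and 3600 FPKM in the α-KG group. All 8 genes were higher in the α-KG group, where 8.4% of all genes rose. In the anti-PD1 group they summed to 22.7 to 117 FPKM and with both agents to 40.0 to 162 FPKM. There 0 and 3 of the 8 genes were higher than in vehicle, where 0.467% and 34.9% of all genes rose. Ly6g was at 0 in all 4 vehicle tumors. Pan-leukocyte markers (7 genes) summed to only 40.5 and 41.4 FPKM in vehicle tumors 3 and 4, against 172 and 115 FPKM in vehicle tumors 1 and 2, so counts of calls resting on the vehicle group are also given without tumors 3 and 4. All 7 were higher than in vehicle in the α-KG group (485 to 526 FPKM) and with both agents (261 to 963 FPKM), where 8.4% and 34.9% of all genes rose. Skeletal muscle genes (6 genes) summed to 58.8 to 79.1 FPKM in vehicle tumors 1 to 3 and to 746 FPKM in vehicle tumor 4, to 2.49 to 4.25 FPKM in all anti-PD1 and α-KG tumors, and to 75.4, 46.2, 4.7 and 4.5 FPKM in α-KG + anti-PD1 tumors 1 to 4. Red blood cell genes (9 genes) were lower in the α-KG + anti-PD1 group (9 of 9), where 10.5% of all genes fell. Hemoglobin genes took 2.09 to 2.23% of all FPKM in that group against 10.9 to 16.8% in the vehicle group. When vehicle tumors 3 and 4 were left out, the neutrophil genes higher than in vehicle numbered 8 of 8 with α-KG and 1 of 8 with both agents, and the pan-leukocyte genes 5 and 7 of 7. With both agents 7 of the 9 red blood cell genes were then lower. Of all genes, 468 then rose with α-KG, and 1590 rose and 220 fell with both agents. In RNA from whole tumors, fewer cells of a type and less RNA per cell cannot be told apart.

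**Figure D1:**
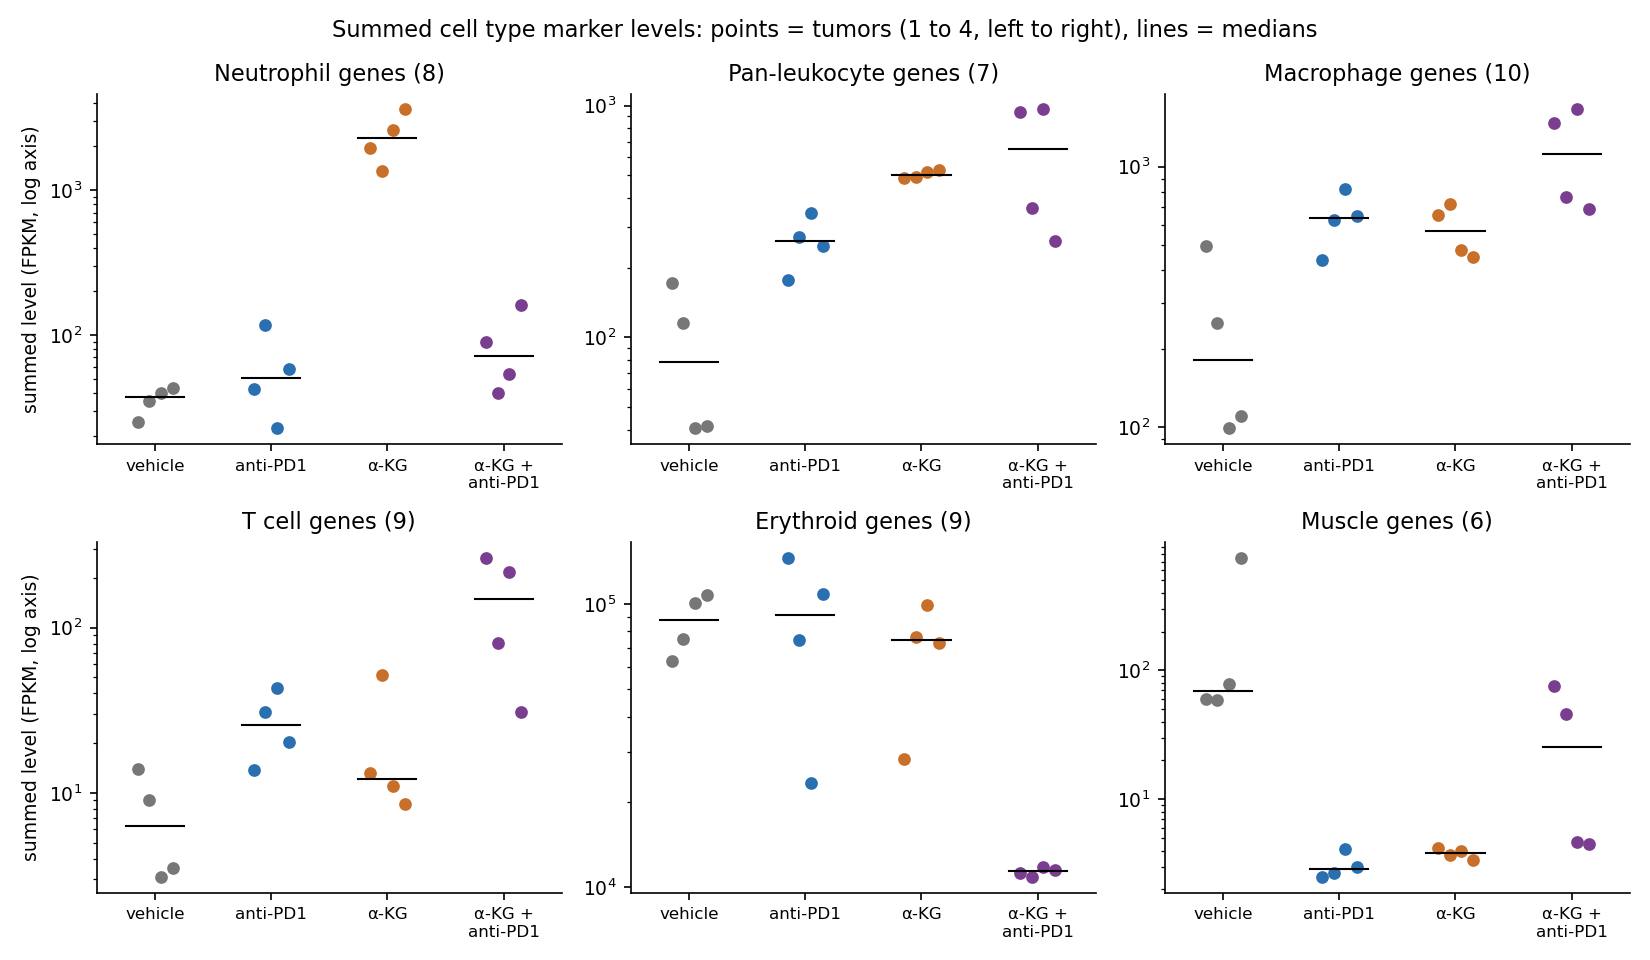
Summed FPKM (log axis) of marker genes of 6 cell types in the 16 tumors, by group; each point is a tumor, in the order of its replicate number, and each line is a group median. Neutrophil genes were at 1360 to 3600 FPKM in the α-KG group and at or under 162 FPKM in every other tumor, and vehicle tumors 3 and 4 held the lowest pan-leukocyte sums.

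Among the 10 genes, 4 passed the test between the α-KG and the vehicle group: Slc7a11, Hmox1 and Fth1 rose and Tfrc fell. Of all genes tested, 8.4% rose and 7.53% fell in that comparison. With both agents against vehicle, Gclc rose and Gpx4 and Tfrc fell, where 34.9% of all genes rose and 10.5% fell. No member passed between the anti-PD1 and the vehicle group, where 0.467% of all genes rose and 0.28% fell. There 2 of the 10 (Tfrc and Hmox1) had an unadjusted limma p under 0.05, beside 2130 of all 12850 genes. The median difference over the 10 genes was -0.05 with α-KG, 0.13 with anti-PD1 and 0.20 with both, beside -0.04, 0.03 and 0.15 over all genes. These comparisons share the 4 vehicle tumors.

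**Figure D2:**
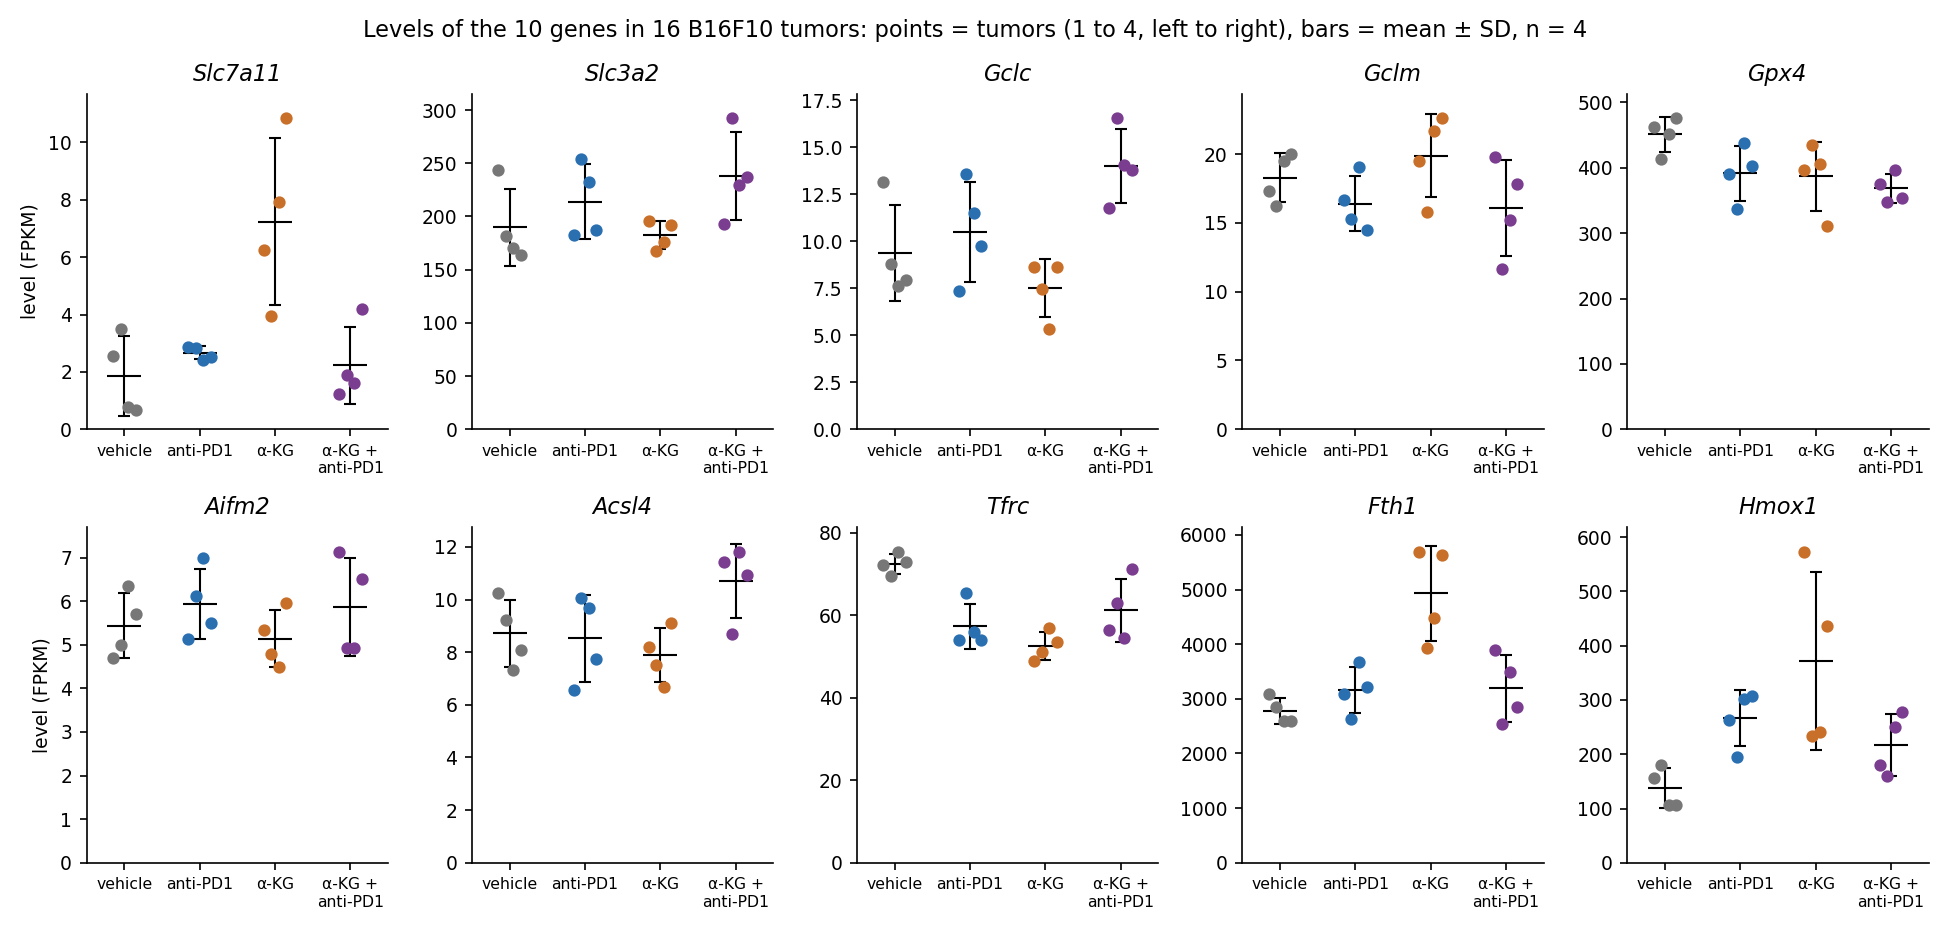
FPKM of the 10 genes in each of the 16 tumors, by group, with a linear axis from 0 for each gene; points are tumors in the order of their replicate number, and black bars give the mean ± SD of 4 tumors. Slc7a11, Fth1 and Hmox1 lay higher in all 4 α-KG tumors than in any vehicle tumor, and Tfrc lay lower. Between these groups 8.4% of all genes rose, 7.53% fell and 3880 of 12850 had an unadjusted limma p under 0.05.

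The scale of the tumors bears on all counts with both agents, since the deposited values carry no stated normalization between tumors. Of all genes, 4479 rose and 1348 fell with both agents against vehicle (76.9% higher), but 31.4% of calls were higher under centering on tumor medians, 35.9% under quantile normalization and 96.2% under rescaling to the same sum. Against the α-KG group the share was 83.1%, and 36.0%, 50.0% and 94.9% under these scalings. Against the anti-PD1 group it was 91.5%, and 29.0%, 40.0% and 99.1%, and for the interaction 71.9%, and 38.1%, 50.4% and 88.1%. Between α-KG and vehicle it was 52.7%, and 43.3% under centering, 38.7% under quantile normalization, 67.7% under rescaling to the same sum and 40.0% when that sum left out the hemoglobin genes. Between anti-PD1 and vehicle it was 62.5%, and 51.7% under rescaling to the same sum and 73.5% when that sum left out the hemoglobin genes. For both agents against vehicle the median of all genes moved from 0.15 to -0.16 under centering and to 0.34 under rescaling to the same sum. Relative to the median of 0.15, the differences with both agents were -0.44 for Gpx4, -0.40 for Tfrc and 0.41 for Gclc.

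Slc7a11 was the lowest expressed of the 10 genes, ranking 9496 among all 18929 genes by mean level. Its level was 2.55, 3.49, 0.77 and 0.66 FPKM in vehicle tumors 1 to 4, and 6.25, 3.95, 7.91 and 10.84 FPKM in the α-KG tumors. The anti-PD1 tumors held 2.88, 2.84, 2.43 and 2.51 FPKM and the α-KG + anti-PD1 tumors 1.24, 1.88, 1.60 and 4.21 FPKM. The α-KG tumors lay above every vehicle and anti-PD1 tumor, 3 of the 4 α-KG + anti-PD1 tumors lay in the range of the vehicle group, and the remaining tumor 4 lay above α-KG tumor 2. The mean rose 3.88-fold with α-KG, from 1.87 ± 1.39 to 7.24 ± 2.90 FPKM (SD, n = 4), a difference of 1.58 ± 0.33 (SE, limma adjusted p = 0.00416; exact two-sided permutation p = 0.029, the smallest that 4 against 4 tumors allow). The order of the means was α-KG, anti-PD1, α-KG + anti-PD1 and vehicle, and the last 3 of them overlapped in their ranges.

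Within the vehicle group, Slc7a11 was low in the same tumors 3 and 4 whose leukocyte markers were low. Without them the difference between the α-KG and the vehicle group was 0.97, and adjusted p was 0.108, the highest of a range of 0.00163 to 0.108 over 27 alternatives. The order of the 4 α-KG tumors was the same for Slc7a11 and for the summed neutrophil markers (1955, 1360, 2606 and 3603 FPKM in tumors 1 to 4). In each of the other groups the orders differed. In the vehicle group the neutrophil sums were 25.2, 34.9, 39.9 and 43.0 FPKM in tumors 1 to 4, highest in the tumors 3 and 4 where Slc7a11 was lowest. The part of the neutrophil and other leukocyte RNA in the Slc7a11 difference was not tested. With both agents, Slc7a11 differed from vehicle by 0.22 ± 0.33 (adjusted p = 0.60), with an unadjusted 95% interval of -0.48 to 0.93. The sign of that small difference turned under quantile normalization (-0.24), under centering on tumor medians (-0.09), without α-KG + anti-PD1 tumor 4 (-0.03) and without vehicle tumors 3 and 4 (-0.38).

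Slc3a2, the heavy chain that carries Slc7a11 and several other amino acid transporters to the membrane, was far more abundant than its partner in every group. Its mean was 190 ± 36.3 FPKM in the vehicle, 214 ± 34.9 in the anti-PD1, 183 ± 13.1 in the α-KG and 238 ± 41.0 FPKM with both agents (SD, n = 4). The ranges of all 4 groups overlapped. Slc3a2 did not pass the test against vehicle with α-KG (-0.04 ± 0.14, adjusted p = 0.881), with anti-PD1 (0.17 ± 0.14, adjusted p = 0.559) or with both (0.33 ± 0.14, adjusted p = 0.0738). The difference with both agents passed under rescaling to the same sum (0.54) and without tumor 1 of the vehicle group (0.45) or of the group given both (0.42), with adjusted p between 0.0116 and 0.932 over 27 alternatives.

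Glutathione is built in its first step by glutamate-cysteine ligase, of which Gclc is the catalytic and Gclm the modifier subunit. Gclc was at 13.13, 8.77, 7.60 and 7.93 FPKM in the vehicle tumors and at 11.78, 16.54, 14.07 and 13.80 FPKM in the tumors given both agents. Vehicle tumor 1 lay above α-KG + anti-PD1 tumor 1, so the groups overlapped by a single tumor of each. The anti-PD1 tumors (7.33 to 13.59 FPKM) overlapped both, and the α-KG tumors (5.32 to 8.64 FPKM) lay below every α-KG + anti-PD1 tumor. Gclc rose 1.5-fold with both agents (0.56 ± 0.19, adjusted p = 0.0264, exact permutation p = 0.057). With α-KG alone it differed by -0.27 ± 0.19 (adjusted p = 0.364). The rise lost the test under quantile normalization (0.26) and under centering on tumor medians (0.25), and without vehicle tumor 2, 3 or 4 or tumor 2 or 3 of the group given both (0.48 to 0.56), and without both vehicle tumors 3 and 4 (0.35), with adjusted p between 0.00469 and 0.312 over 27 alternatives. The modifier subunit Gclm passed in no comparison at the deposited scale, but with both agents it was lower than in vehicle under quantile normalization (-0.41) and centering (-0.50) and turned to 0.02 under rescaling to the same sum. Its means were 18.3 ± 1.78 FPKM in the vehicle, 16.4 ± 1.99 in the anti-PD1, 19.9 ± 3.03 in the α-KG and 16.1 ± 3.50 FPKM with both agents (SD, n = 4).

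Gpx4, the selenoenzyme that reduces phospholipid peroxides with glutathione, was among the most abundant transcripts, ranking 184 among all genes. The vehicle tumors held 462, 414, 451 and 476 FPKM and the α-KG + anti-PD1 tumors 375, 348, 397 and 354 FPKM. All 4 of the latter lay below all 4 of the former, and the single agent groups (337 to 438 FPKM with anti-PD1, 312 to 436 FPKM with α-KG) overlapped both. Gpx4 fell to 0.818 of the vehicle mean with both agents (-0.29 ± 0.10, adjusted p = 0.0305; exact permutation p = 0.029). The differences with α-KG (-0.23 ± 0.10, adjusted p = 0.146) and with anti-PD1 (-0.21 ± 0.10, adjusted p = 0.324) had the same sign and did not pass, though with α-KG it passed under quantile normalization (-0.28) and rescaling without the hemoglobin genes (-0.29), with adjusted p between 0.0278 and 0.448 over 27 alternatives. The fall with both agents lost the test under quantile normalization (-0.19), rescaling of the tumors to the same sum (-0.07), and without vehicle tumor 1, 3 or 4 or tumor 2 or 4 of the group given both, and without both vehicle tumors 3 and 4 (-0.25), with adjusted p between 0.00175 and 0.577 over 27 alternatives. Gpx4 and Fth1 have processed copies in the mouse genome with nearly the same sequence, and how the authors' counting shared fragments between copies is not given in the sources used here.

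Aifm2, also called FSP1, regenerates the radical trapping form of coenzyme Q and so protects membranes without glutathione. It was low in every group, with means of 5.44 ± 0.743 FPKM in the vehicle, 5.94 ± 0.807 in the anti-PD1, 5.14 ± 0.647 in the α-KG and 5.87 ± 1.13 FPKM with both agents (SD, n = 4). No comparison passed, and the unadjusted 95% interval of the difference from vehicle was -0.34 to 0.21 with α-KG and -0.19 to 0.36 with both agents.

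Acsl4 activates arachidonic and adrenic acid for their entry into phospholipids and so supplies the substrate of peroxidation. The vehicle tumors held 10.24, 9.22, 7.34 and 8.07 FPKM, the α-KG tumors 8.19, 7.53, 6.69 and 9.12 FPKM, and the α-KG + anti-PD1 tumors 11.44, 8.69, 11.81 and 10.95 FPKM. Of the tumors given both agents 3 of 4 lay above every vehicle, anti-PD1 (6.58 to 10.05 FPKM) and α-KG tumor, and tumor 2 lay among them. Against vehicle the difference with both agents was 0.27 ± 0.14 (adjusted p = 0.119), and its sign turned under quantile normalization (-0.05) and centering on tumor medians (-0.04), while it passed under rescaling to the same sum (0.47). Against the α-KG group Acsl4 was 1.36-fold higher with both agents (0.40 ± 0.14, adjusted p = 0.0325, exact permutation p = 0.057). This limma call was lost under quantile normalization (0.12), under centering (0.13) and with the replicate number as a block (adjusted p = 0.0608). It was also lost without tumor 2 or 3 of the α-KG group or tumor 1, 3 or 4 of the group given both. Adjusted p lay between 0.00962 and 0.363 over 27 alternatives. T cell markers (9 genes) were all higher with both agents than with α-KG alone, where 31.8% of all genes rose. They summed to 8.52 to 51.7 FPKM in the α-KG group and to 264, 81.3, 217 and 30.9 FPKM in α-KG + anti-PD1 tumors 1 to 4. Their part in the Acsl4 difference was not tested.

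Tfrc, the receptor that takes up iron bound to transferrin, was the only member that passed the test with α-KG and with both agents. Its level was 72.1, 69.6, 75.4 and 72.8 FPKM in the vehicle tumors, 53.9, 65.4, 56.0 and 54.1 FPKM in the anti-PD1 tumors, 49.0, 51.1, 56.8 and 53.5 FPKM in the α-KG tumors, and 56.3, 63.0, 54.4 and 71.3 FPKM in the tumors given both agents. All anti-PD1 and α-KG tumors lay below the lowest vehicle tumor, and of the α-KG + anti-PD1 tumors only number 4 reached the vehicle range. Tfrc fell to 0.726 of the vehicle mean with α-KG (-0.46 ± 0.09, adjusted p = 0.00197), and this held without vehicle tumors 3 and 4 (-0.42, adjusted p = 0.0442, the highest of a range that began at 0.000719 over 27 alternatives). With anti-PD1 the difference was -0.34 ± 0.09 (adjusted p = 0.0699, exact permutation p = 0.029), which passed without tumor 1 of the vehicle group or tumor 4 of the group given both. With both agents it was -0.25 ± 0.09 (adjusted p = 0.0291, exact permutation p = 0.057). This limma call was lost under rescaling to the same sum (-0.03), rescaling without the hemoglobin genes (-0.22) and in the fit of only the 2 groups compared (-0.25). It was also lost without vehicle tumor 3 or 4 or tumor 1 or 3 of the group given both, and without both vehicle tumors 3 and 4 (-0.21). Adjusted p lay between 0.000852 and 0.821. Tfrc is known to be high in dividing cells and in red cell precursors. Of 10 cell cycle genes, 7 fell with α-KG and 7 with both agents, where 7.53% and 10.5% of all genes fell. Without vehicle tumors 3 and 4 these numbers were 2 and 1, where 154 and 220 of all genes fell. The summed level of the 10 genes was 611 to 900 FPKM in the vehicle, 484 to 607 FPKM in the α-KG and 530 to 599 FPKM with both agents. Of the 9 red blood cell genes 1 fell with α-KG, beside the same 7.53%, and 0 without vehicle tumors 3 and 4. The part of dividing and of red cell precursor cells in the Tfrc difference was not tested.

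Fth1 encodes the ferritin heavy chain, which oxidizes iron for storage, and ranked 12 among all genes by mean level. The vehicle tumors held 3081.5, 2853, 2593 and 2590 FPKM, and the α-KG tumors 5689, 3933, 4478 and 5632 FPKM. The anti-PD1 tumors (2637 to 3676 FPKM) and the α-KG + anti-PD1 tumors (2536 to 3892 FPKM) lay in a common range that reached into that of the vehicle group. Every α-KG tumor lay above every other tumor. Fth1 rose 1.77-fold with α-KG (0.81 ± 0.16, adjusted p = 0.0026; exact permutation p = 0.029), and without vehicle tumors 3 and 4 the difference was 0.72 (adjusted p = 0.067, the highest of a range that began at 0.00153 over 27 alternatives). With both agents the difference from vehicle was 0.18 ± 0.16 (adjusted p = 0.363), and it turned to -0.13 under centering on tumor medians and passed under quantile normalization (0.61). Neutrophil markers, which moved with the α-KG group, were 8 of 8 higher in it, where 8.4% of all genes rose. The part of neutrophil RNA in the Fth1 difference was not tested.

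Hmox1, heme oxygenase 1, frees iron from heme and is strongly produced by macrophages that have taken up red cells. The vehicle tumors held 157, 180, 106 and 107 FPKM, the anti-PD1 tumors 264, 195, 301 and 307 FPKM, the α-KG tumors 573, 234, 242 and 437 FPKM, and the α-KG + anti-PD1 tumors 179, 160, 251 and 278 FPKM. Every anti-PD1 and every α-KG tumor lay above every vehicle tumor, and α-KG tumors 1 and 4 stood above all other tumors. Hmox1 rose 2.69-fold with α-KG (1.36 ± 0.28, adjusted p = 0.00377; exact permutation p = 0.029). Without vehicle tumors 3 and 4 the difference was 1.03 (adjusted p = 0.0994, the highest of a range that began at 0.00242 over 27 alternatives). With anti-PD1 the mean was 1.93 times that of vehicle (0.96 ± 0.28, adjusted p = 0.104; exact permutation p = 0.029), and with both agents 1.58 times (0.65 ± 0.28, adjusted p = 0.0676). The latter passed in 6 of 27 alternatives, under quantile normalization (0.72), rescaling to the same sum (0.87), in the fit of only the 2 groups compared (0.65), and without tumor 2 of the vehicle group, tumor 1 of the α-KG group and tumor 2 of the group given both. Of the 9 macrophage markers tested, 6 were higher than in vehicle with α-KG, 2 with anti-PD1 and 9 with both agents. Of all genes 8.4%, 0.467% and 34.9% rose in these comparisons. Without vehicle tumors 3 and 4 the macrophage numbers were 2, 0 and 8, where 468, 0 and 1590 of all genes rose. The summed level of the macrophage markers over 10 genes was 99.1 to 495 FPKM in the vehicle, 437 to 823 FPKM in the anti-PD1, 449 to 719 FPKM in the α-KG and 687 to 1660 FPKM with both agents. The part of macrophage RNA in the Hmox1 differences was not tested.

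**Figure D3:**
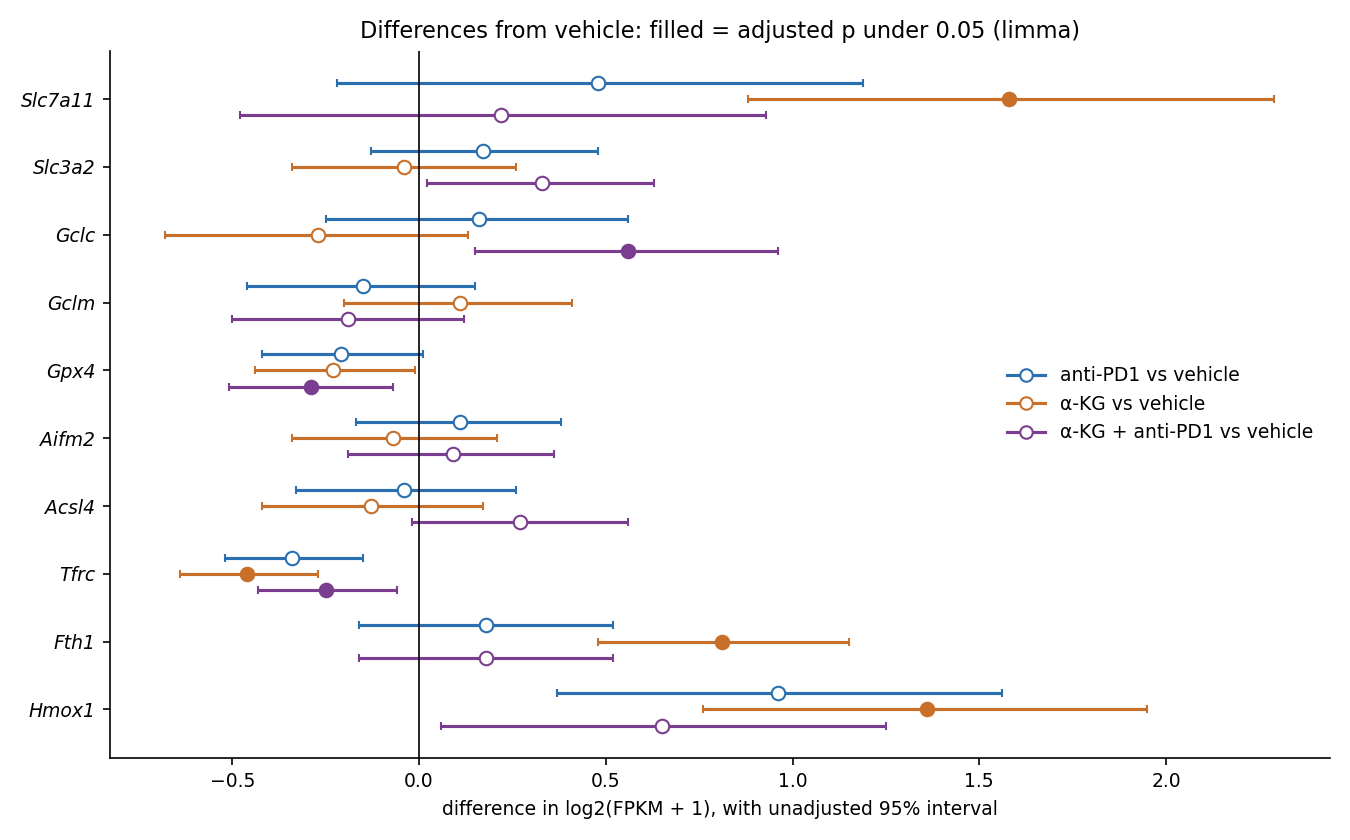
Difference of each of the 10 genes from the vehicle group in log2(FPKM + 1), by treatment, with its unadjusted 95% interval from limma; filled points had an adjusted p under 0.05 and open points did not. With α-KG (orange) Slc7a11 (1.58), Hmox1 (1.36) and Fth1 (0.81) lay to the right and Tfrc (-0.46) to the left, and no anti-PD1 point is filled.

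Of the 3 genes that rose with α-KG alone, Slc7a11 and Fth1 were lower again in the tumors that received anti-PD1 in addition. With both agents against α-KG alone, Slc7a11 (-1.36 ± 0.33, adjusted p = 0.00567) and Fth1 (-0.63 ± 0.16, adjusted p = 0.00688) fell and Gclc (0.83 ± 0.19, adjusted p = 0.00407) rose, besides Acsl4. Of all genes tested, 31.8% rose and 6.47% fell in this comparison. Hmox1 differed by -0.70 ± 0.28 (adjusted p = 0.0589). The Slc7a11 and Gclc limma calls held under all 27 alternatives. That of Fth1 was lost under quantile normalization (-0.02) and rescaling to the same sum (-0.40), with adjusted p between 0.00166 and 0.95. The exact permutation p was 0.057 for Slc7a11, whose groups overlapped, and 0.029 for Fth1 and for Gclc. All 8 neutrophil markers were also lower with both agents than with α-KG alone. With both agents against anti-PD1 alone no member passed, where 14.2% of all genes rose and 1.31% fell. Of the 10 members Acsl4 alone had an unadjusted p under 0.05 (0.31 ± 0.14, adjusted p = 0.128), beside 4384 of all 12850 genes.

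Whether the difference with anti-PD1 depended on α-KG was tested as an interaction, the difference with α-KG present minus the difference without it. Of the 10 genes 4 passed, 1 higher and 3 lower, where 7.99% of all genes were higher and 3.13% lower. For Slc7a11 anti-PD1 went with a difference of 0.48 without α-KG and of -1.36 with it, an interaction of -1.84 ± 0.47 (adjusted p = 0.023). The corresponding values for Hmox1 were 0.96 and -0.70 (-1.66 ± 0.40, adjusted p = 0.0168). For Tfrc they were -0.34 and 0.21 (0.55 ± 0.12, adjusted p = 0.012), and for Fth1 0.18 and -0.63 (-0.81 ± 0.23, adjusted p = 0.0333). For each of these 4 genes the combination lay nearer to vehicle than the sum of the differences of the single agents. Without vehicle tumors 3 and 4 the Tfrc interaction alone passed, and Slc7a11 had -1.23 (adjusted p = 0.0746, within a range of 0.0111 to 0.0746 over 26 alternatives). The Tfrc interaction was lost under quantile normalization (0.46) and centering (0.35), and that of Fth1 in 15 of 26 alternatives, with adjusted p up to 0.705. Leaving out α-KG tumor 3 left 2 of the 4, since Slc7a11 (-1.78) and Fth1 (-0.85) were lost.

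**Figure D4:**
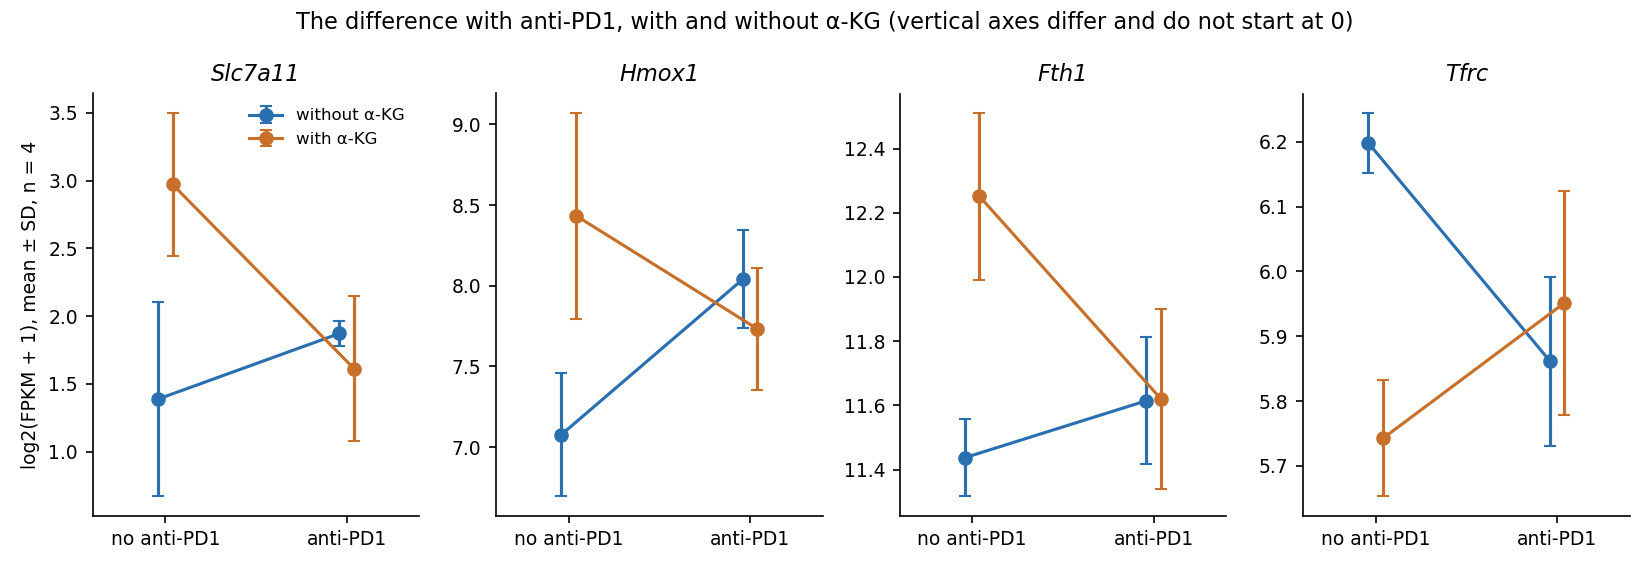
Mean ± SD of log2(FPKM + 1) over 4 tumors for the 4 genes whose interaction passed, without anti-PD1 (left of each panel) and with it (right), in tumors without α-KG (blue) and with α-KG (orange); the vertical axes differ between panels and do not start at 0. The lines cross for Slc7a11, Hmox1 and Tfrc and meet for Fth1 on the side with anti-PD1. In the means, Slc7a11, Hmox1 and Fth1 stood highest with α-KG alone, and Tfrc stood highest in vehicle.

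The other genes of these pathways were counted in 6 lists, to be read beside the shares of all genes that rose or fell in the same comparison. With anti-PD1 alone 0 genes of any list passed the limma test, where 0.467% of all genes rose and 0.28% fell. An unadjusted p under 0.05 was found for 1 to 4 genes per list, beside 2130 of all 12850 genes. Without vehicle tumor 1 the passing genes became 2 of the lipid substrate, 1 of the iron and 2 of the NRF2 list. Further, 1 iron gene passed without α-KG + anti-PD1 tumor 1, 3 or 4 and 1 lipid substrate gene without tumor 4. With α-KG, the iron list had the most passing genes: 6 of 20 tested genes rose and none fell, where 8.4% of all genes rose and 7.53% fell, at a list median of 0.01 beside -0.04 over all genes. Lcn2, which binds iron-loaded siderophores and is stored in neutrophil granules, had the largest difference (6.49 ± 0.41), from 2.70 ± 1.46 FPKM in vehicle to 343 ± 139 FPKM with α-KG (SD, n = 4). Steap4, a metalloreductase, rose from 0.245 ± 0.219 to 7.79 ± 3.72 FPKM (2.71 ± 0.29). Smaller rises were those of Fbxl5, the iron sensor that degrades iron regulatory protein 2 (0.73 ± 0.14), and of the ferritin light chain Ftl1 (0.45 ± 0.14), whose level went from 6990 ± 461 to 9580 ± 782 FPKM. With α-KG + anti-PD1, Lcn2 stood at 3.75 ± 2.68 and Steap4 at 0.383 ± 0.459 FPKM, and neither passed against vehicle. The remaining rises with α-KG, named here outside the rule for named genes, were Slc11a1 (2.61 ± 0.43) and the iron exporter Slc40a1 (1.00 ± 0.24). Both genes also passed with α-KG + anti-PD1 against vehicle (2.58 ± 0.43 and 0.89 ± 0.24). The part of neutrophil RNA in these rises was not tested. The iron list kept 5 or 6 rises and at most 1 fall under each of 4 other scalings, and had 3 rises without vehicle tumors 3 and 4.

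The list of NRF2 and its targets had 5 rises and no fall among 14 genes with α-KG, beside 8.4% and 7.53% of all genes, at a median of 0.08. Mafg, a small MAF partner of NRF2, rose most (0.83 ± 0.22), followed by the NRF2 target Osgin1 (0.72 ± 0.17), while Bach1, a repressor of NRF2 targets (0.63 ± 0.19), Nfe2l2, which encodes NRF2 itself (0.50 ± 0.13), and Maff (0.41 ± 0.13) rose less. Bach1 is named outside the rule for named genes, after its value was seen. The listed target enzymes Me1 (-0.35 ± 0.13), Ephx1 (-0.39 ± 0.14), G6pdx (-0.25 ± 0.14) and Srxn1 (0.13 ± 0.17), also named after their values were seen, did not pass. Of the members known as NRF2 targets, Slc7a11, Hmox1 and Fth1 rose with α-KG, and Gclc and Gclm did not pass. The 5 rises fell to 1 without vehicle tumor 3 or without vehicle tumor 4, to 3 without vehicle tumor 2 or α-KG tumor 1 or 4, to 2 under rescaling to the same sum, and to 0 without both vehicle tumors 3 and 4. In the cystine and glutathione list, 1 of 12 rose, the glutathione reductase Gsr (0.53 ± 0.15), and 1 fell, the amino acid carrier Slc7a5 (-0.47 ± 0.15), at a median of -0.14, beside the same shares of all genes. Slc7a5 is another light chain of Slc3a2. These 2 calls became 0 under rescaling to the same sum and without vehicle tumor 2 or α-KG tumor 1, and 1 without vehicle tumor 3, vehicle tumor 4 or both, without anti-PD1 tumor 3, tumor 2, 3 or 4 of the α-KG group, or tumor 1 or 2 of the group given both.

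In the list of defence against lipid radicals, 2 of 12 rose with α-KG and 1 fell, beside 8.4% and 7.53% of all genes, at a median of -0.04. They were mitochondrial superoxide dismutase Sod2 (0.51 ± 0.12), Gch1, which makes the antioxidant tetrahydrobiopterin (0.44 ± 0.14), and the phospholipid remodelling enzyme Mboat2 (-0.37 ± 0.07). Gch1 had an adjusted p of 0.0496 and passed under 1 of the 4 other scalings, and the 3 calls of the list became 2 with no filter, with the replicate block and with robust eBayes. In the list of lipid substrates, 2 of 14 rose and 1 fell, beside the same shares of all genes, at a median of -0.10. Alox5, the 5-lipoxygenase of myeloid cells (0.89 ± 0.14, from 0.185 ± 0.0603 to 1.23 ± 0.368 FPKM), and Sat1, which acetylates polyamines (0.84 ± 0.15), rose, and the fatty acid desaturase Fads2 fell (-0.41 ± 0.12). In the ATF4 list, Atf3 (0.76 ± 0.19) and Xbp1 (0.30 ± 0.07) rose and Ddit3, also called CHOP (-0.50 ± 0.14), fell, 2 and 1 of 14, at a median of 0.01. Slc7a11 is also a known target of ATF4. Without vehicle tumors 3 and 4, there were 1 rise and 1 fall in the radical defence list, 1 rise in the lipid substrate list and 0 calls in the ATF4 list, which had 1 call without vehicle tumor 3 alone. Of the genes named for α-KG in these lists, Lcn2, Steap4, Slc11a1, Gsr, Sod2, Mboat2 and Alox5 passed without both of these tumors.

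With both agents the lipid substrate list had 6 falls and 1 rise among 14 genes, where 10.5% of all genes fell and 34.9% rose. Its median was -0.15 beside 0.15 over all genes. The split became 3 falls and 4 rises under rescaling to the same sum, where 250 of all genes fell and 6294 rose. Under centering on tumor medians it became 9 falls and 1 rise, where 4803 of all genes fell and 2197 rose. The falls were led by Fads2 (-0.76 ± 0.12), from 97.9 ± 2.22 to 58.3 ± 12.1 FPKM, and by the stearoyl-CoA desaturases Scd2 (-0.60 ± 0.13) and Scd1 (-0.54 ± 0.13), which make monounsaturated fatty acids, and the rise was that of Sat1 (1.00 ± 0.15). Each of these 4 genes kept its direction and passed under all 4 other scalings. Without vehicle tumors 3 and 4 the list had 3 falls and 1 rise, and Scd1 no longer passed.

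In the iron list 6 of 20 rose with both agents and 2 fell, near the shares of 34.9% and 10.5% over all genes, at a median of 0.05. Under centering on tumor medians 3 rose and 10 fell, where 2197 of all genes rose and 4803 fell. Slc11a1, the iron exporter of phagosomes (2.58 ± 0.43), and the ferroxidase Cp (1.06 ± 0.36) rose most, while Ncoa4, which delivers ferritin for breakdown (-0.55 ± 0.12), and the iron chaperone Pcbp1 (-0.35 ± 0.13) fell. In the NRF2 list 4 of 14 rose and 3 fell, beside the same shares, with Mafg (0.95 ± 0.22) and Bach1 (0.90 ± 0.19) at the top and the NADPH producing enzymes Me1 (-0.46 ± 0.13) and G6pdx (-0.37 ± 0.14) at the bottom, at a median of 0.09. The split was 2 rises and 6 falls under centering, beside the same numbers of all genes. Under rescaling to the same sum it was 7 rises and no fall, where 6294 of all genes rose and 250 fell. The 8 iron calls became 5 without vehicle tumor 3, vehicle tumor 4 or α-KG + anti-PD1 tumor 2 and in the fit of only the 2 groups compared, and without both vehicle tumors 3 and 4 the iron list had 1 rise, that of Slc11a1, and the NRF2 list 0 calls.

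The remaining 3 lists had fewer passing genes with both agents, where 34.9% of all genes rose and 10.5% fell. In the cystine and glutathione list 3 of 12 rose, namely Mgst1 (0.86 ± 0.22), the glutamine carrier Slc1a5 (0.58 ± 0.18) and Ggt1 (0.44 ± 0.14, but -0.03 under quantile normalization). Slc7a5 fell (-0.52 ± 0.15), and the list median was -0.04. The split turned to 1 rise and 6 falls under centering, where 2197 of all genes rose and 4803 fell. In the radical defence list Gch1 rose (0.46 ± 0.14, but -0.05 under quantile normalization) and 3 of 12 fell, among them Mboat2 (-0.53 ± 0.07) and Nqo1 (-0.42 ± 0.15), at a median of -0.16. Rescaling to the same sum gave 4 rises and 1 fall, where 6294 of all genes rose and 250 fell. In the ATF4 list Atf3 rose (0.86 ± 0.19) and Phgdh fell (-0.41 ± 0.15), at a median of -0.08. Without vehicle tumor 3 or vehicle tumor 4 the calls numbered 2 in the glutathione and 1 in the radical defence list, and without both they numbered 0 and 1 (Mboat2). The radical defence list had 7 calls without vehicle tumor 1 and 2 without α-KG + anti-PD1 tumor 2 or 3. The ATF4 list had 1 call without vehicle tumor 1 or 3, both vehicle tumors 3 and 4, or tumor 1 or 3 of the group given both, and 4 calls without α-KG + anti-PD1 tumor 4, and the call without both vehicle tumors 3 and 4 was Phgdh. Genes induced by interferon γ, a cytokine of activated T cells, were 12 of 12 higher with both agents, where 34.9% of all genes rose, and 1 of 12 with α-KG, where 8.4% rose. These numbers were 8 and 1 without vehicle tumors 3 and 4, where 1590 and 468 of all genes rose. Their summed level was 1690, 1114, 311 and 329.5 FPKM in vehicle tumors 1 to 4, 794 to 1350 FPKM with α-KG and 1910 to 4280 FPKM with both agents, and vehicle tumors 1 and 2 were also the vehicle tumors with more Slc7a11. The part of interferon γ in the level of Slc7a11 was not tested.

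**Figure D5:**
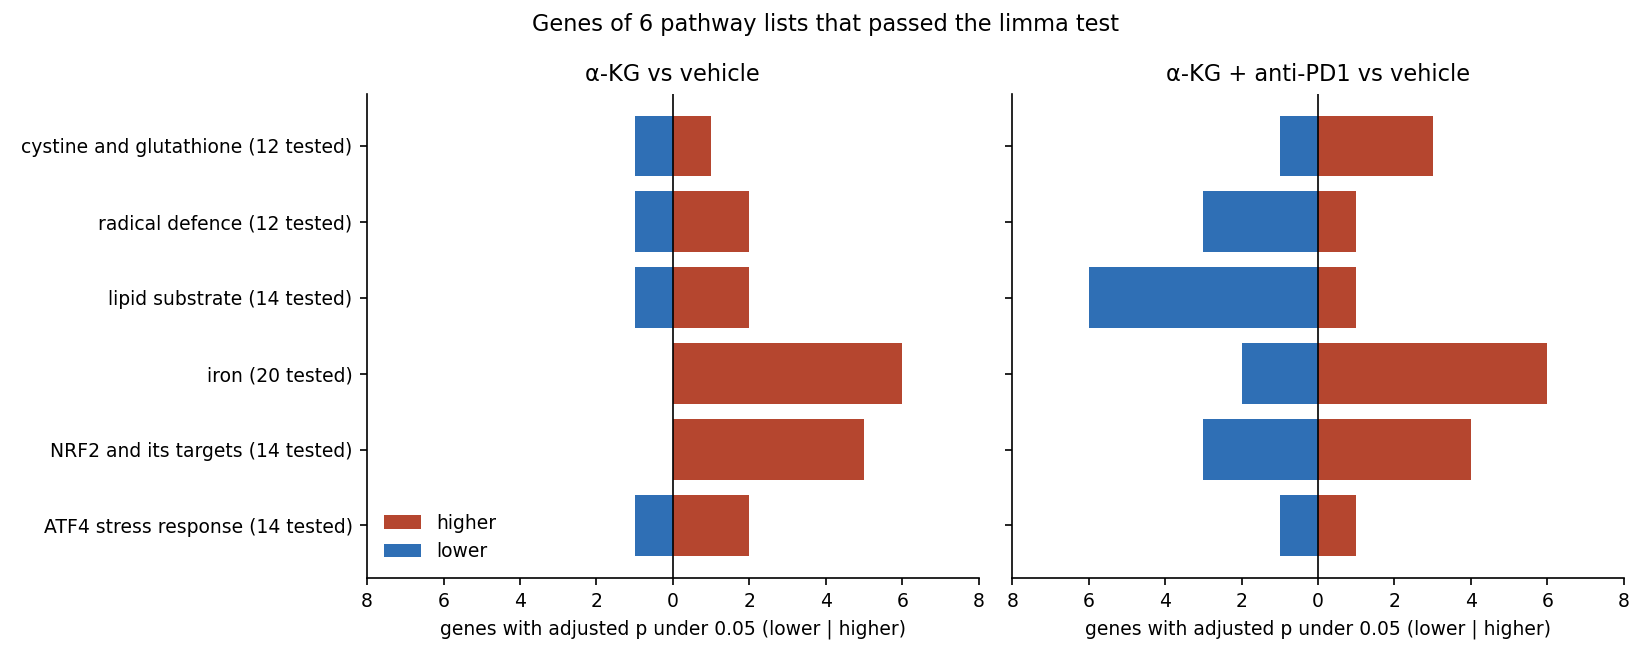
Number of genes with an adjusted p under 0.05 in 6 pathway lists, higher to the right and lower to the left, for α-KG (left panel) and α-KG + anti-PD1 (right panel) against vehicle. Iron genes (6 of 20) and NRF2 genes (5 of 14) rose with α-KG with none falling at the deposited scale, where 8.4% of all genes rose and 7.53% fell. Of the lipid substrate genes 6 of 14 fell and 1 rose with both agents, where 10.5% of all genes fell and 34.9% rose. That split reads 3 falls and 4 rises when the tumors are rescaled to the same sum, where 250 of all genes fell and 6294 rose.

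By the likeness of their pattern over the 16 tumors, other genes stood nearest to 3 of the members, described by Pearson's r of log2(FPKM + 1). All points share the 4 groups and the tumors' scale. For Slc7a11 they were Arl5b (r = 0.932), Tlr4 (0.927), Pde4b (0.897), Gcnt2 (0.893) and Dhrs9 (0.883), each highest in the α-KG group, as Tlr4 at 7.20 FPKM against 4.93 in vehicle. For Hmox1 they were Pdpn (0.918), Spp1 (0.91), Emp1 (0.902), Rab32 (0.895) and Pf4 (0.885), and Spp1, osteopontin, averaged 40.4 FPKM in vehicle, 123 with anti-PD1, 230 with α-KG and 78.6 FPKM with both. For Acsl4 they were Brd2 (0.932), Ppp3ca (0.931), Ankrd50 (0.928), Dcaf5 (0.919) and Arhgap30 (0.916), each highest with both agents.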

How the data were processed

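RNA of 16 B16F10 tumors was analysed, in the groups given by the labels. According to the labels, poly(A) RNA was made into libraries with a dUTP marked second strand and sequenced with DNBSEQ. As FPKM values with 2 decimals, the authors deposited 1 table for all tumors. The submitters' processing notes name HISAT, Bowtie2 and mm10, without versions, and the counting program, the annotation and any scaling between tumors are not given in the sources used here. Read counts are not in the table, so the depth is unknown. The spacing of low values put the relative depth of the tumors at 0.73 to 1.20, which was used nowhere. FPKM is relative, and a few abundant transcripts such as hemoglobin can move all other values of a tumor.

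Genes that reached 0.5 FPKM in 4 or more tumors were changed to log2(FPKM + 1), which understates changes of low genes, and were fitted with limma 3.58.1 in R 4.3.3 (1 mean per group over 16 tumors, eBayes with trend) with Benjamini-Hochberg adjustment and a threshold of 0.05. Exact two-sided permutation tests of members set 4 tumors against 4. On simulated data, the model fit was tested first. Lists of pathway genes and of cell type markers were written by hand, and the members and lists were chosen with earlier results of these data known. Named in a list were the genes with the largest and smallest passing differences, at most 4 per comparison, and for Slc7a11, Acsl4 and Hmox1 the 5 genes with the highest r. Fibroblast genes (6 genes), endothelial genes (6 genes) and keratinocyte and fat cell genes (6 genes) had 0, 1 and 0 genes higher with α-KG, where 8.4% of all genes rose. In these lists 5, 2 and 0 genes passed the filter. Alternatives were another pseudocount, 4 other scalings, no filter and a stricter one, only the 2 groups compared, the replicate number as a block, robust eBayes, each tumor left out, and, chosen after seeing the data, vehicle tumors 3 and 4 left out. The labels used here give no batch. Sequences came from GENCODE M21 and RefSeq GRCm38.p6.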

Additional observations from a re-analysis of the deposited data

Results flagged for a closer look

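The interaction term of limma passed for 4 of the 10 genes, where 7.99% of all genes were higher and 3.13% lower. Its value on the log2(FPKM + 1) scale, the difference with α-KG minus that without it, was -1.84 for Slc7a11, -1.66 for Hmox1, -0.81 for Fth1 and 0.55 for Tfrc. Under quantile normalization 2 members were called, and without vehicle tumors 3 and 4 Tfrc alone. The Fth1 call was lost in 15 of 26 alternatives. Of the neutrophil markers, all 8 genes were higher with α-KG alone than in vehicle, where 8.4% of all genes rose. All 8 were lower with both agents than with α-KG, where 6.47% of all genes fell. The part of neutrophil RNA in these interactions was not tested. In the 40 sets of 4 tumors (10 genes in 4 groups) no tumor stood apart from the other 3 by Dixon's test. That test looks for 1 outlying tumor and cannot find 2 that lie apart together. Vehicle tumors 3 and 4 held 0.77 and 0.66 FPKM of Slc7a11, against 2.55 and 3.49 FPKM in tumors 1 and 2.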

How the results depend on the processing

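The 4 members called with α-KG against vehicle were 4 in every fit that left out a single tumor (range 4 to 4) and 1 without vehicle tumors 3 and 4. With both agents against vehicle, leaving out a tumor gave 0 to 4 members called in place of 3 (0 without vehicle tumor 3 or 4, 1 without α-KG + anti-PD1 tumor 3), and 0 were called without vehicle tumors 3 and 4. Anti-PD1 against vehicle gave 0 to 1 (1, Tfrc, without vehicle tumor 1 or α-KG + anti-PD1 tumor 4). Both agents against anti-PD1 gave 0 to 0, and 1 under rescaling to the same sum. Both agents against α-KG gave 4 to 6, and the interaction 2 to 5 (2 without α-KG tumor 3), 2 under quantile normalization and 1 without vehicle tumors 3 and 4.

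Signs turned for members that had not passed. Under quantile normalization these were, with both agents against vehicle, Slc7a11 (-0.24), Acsl4 (-0.05) and Aifm2 (-0.31), under centering on tumor medians Slc7a11 (-0.09), Acsl4 (-0.04), Aifm2 (-0.23) and Fth1 (-0.13), and under rescaling to the same sum Gclm (0.02). Leaving out 1 tumor turned Slc7a11 with both agents (range -0.03 to 0.48, turned without α-KG + anti-PD1 tumor 4), Slc3a2 with α-KG (-0.11 to 0.08, turned without vehicle tumor 1) and Acsl4 with anti-PD1 (-0.12 to 0.07, turned to 0.04 without vehicle tumor 1 and to 0.07 without anti-PD1 tumor 1). Without vehicle tumors 3 and 4, Slc7a11 turned with both agents (-0.38) and with anti-PD1 (-0.13), Aifm2 with α-KG (0.07) and Gclc with anti-PD1 (-0.06). The causes were not tested.

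Same-numbered tumors of different groups did not deviate together (r between -0.642 and 0.411 over 24 pairs), so the numbers name tumors and pair none. With the replicate block 3 members were called between both agents and α-KG, since Acsl4 was lost (0.40, adjusted p = 0.0608), and no other member changed its call.

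Over all genes, anti-PD1 against vehicle had 60 calls higher and 36 lower, which became 232 and 80 with a pseudocount of 0.1, 134 and 67 under centering, 15 and 14 under rescaling to the same sum, 3 and 2 with no filter, 11 and 6 with robust eBayes, and 0 with only the 2 groups, with the block and without vehicle tumors 3 and 4 (unadjusted p under 0.05 for 2137, 1971 and 542 genes). Without those tumors α-KG against vehicle went from 1080 higher and 968 lower to 468 and 154 (843 and 403 under rescaling to the same sum), and both agents against vehicle from 4479 and 1348 to 1590 and 220. Both agents against anti-PD1 went from 1819 and 168 to 4198 and 36 under rescaling to the same sum and to 0 with only the 2 groups (4077 genes at an unadjusted p under 0.05), and the interaction from 1027 and 402 to 2110 and 284 under rescaling to the same sum.

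The depth of each tumor is unknown, so no counting error can be given for any value.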
